A study of Mus musculus with 12 samples.

Results

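The drug-metabolizing cytochromes P450 of families 1 to 3 were described in mouse liver as all gene symbols of the form Cyp, a family number from 1 to 3, a letter and a number that had 10 or more reads in at least 3 of the 12 libraries. Of 57 such symbols among 38926 listed, 40 met this minimum and 17 did not. All 40 were among the 14488 genes tested. Livers of 12-week-old male mice with the strain background 129Ola/C57BL6 were collected at zeitgeber time 8 (ZT8, in hours after lights on, that is in the light phase) and at ZT20 (in the dark phase). The 4 groups were wild-type (WT) at ZT8, Rev-erbα-/- (labelled Rev KO) at ZT8, WT at ZT20 and Rev-erbα-/- at ZT20, with 3 livers in each. The knockout is of Nr1d1, the gene of the clock repressor REV-ERBα, in the whole animal, so that no value separates an effect within hepatocytes from one that reaches the liver from elsewhere. The mice came from heterozygous breeding and had free access to food.

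Cytochromes P450 are heme enzymes of the endoplasmic reticulum that insert an oxygen atom into their substrates, with electrons delivered by P450 oxidoreductase (Por). Families 1, 2 and 3 oxidize most drugs, plant toxins and many steroids and fatty acids in hepatocytes, and are grouped by sequence into subfamilies (Cyp2c, Cyp3a). Several are induced through nuclear or bHLH receptors, namely the aryl hydrocarbon receptor (AHR) for Cyp1, and CAR (Nr1i3) and PXR (Nr1i2) for Cyp2b, Cyp2c and Cyp3a. Some differ between the sexes under the pattern of growth hormone release. Rodent members lie in tandem arrays of close copies, and the clock output factors DBP, TEF and HLF are known to act on some of them in liver.

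Between 17641809 and 26060192 reads per library were counted on genes, and values are CPM, read counts scaled to a common library size. At this depth 3 reads amounted to 0.117 to 0.167 CPM. The 40 P450 genes took 1.98% to 2.5% of the counted reads. Log2 fold changes come from edgeR's quasi-likelihood test over all 12 libraries, and p-values are adjusted over the 14488 genes, with 0.05 as the threshold. The value after ± is an approximate standard error, worked back from the test. It is the absolute log2 fold change divided by the square root of the test's F statistic, and is least certain for rare genes. Nr1d1 itself was at 129, 96.2 and 75.3 CPM in WT and 63.0, 71.9 and 80.6 CPM in Rev-erbα-/- at ZT8, groups that overlap (−0.48 ± 0.18, adjusted p = 0.143), and at 1.86 to 3.57 CPM in the 6 livers of ZT20. Its counts, made without strand, therefore did not separate the genotypes. Nr1d1 overlaps Thra on the opposite strand, and counting in union mode leaves out reads that fall on both genes. The paper reports that qRT-PCR found no Rev-erbα mRNA in livers of the knockout. Why reads were counted on Nr1d1 in Rev-erbα-/- was not tested. Arntl, the clock gene that REV-ERBα represses, separated the genotypes at ZT8. It was at 0.796, 0.448 and 0.712 CPM in WT and 24.3, 25.7 and 22.7 CPM in Rev-erbα-/-. At ZT20 it did not separate them (41.1 to 45.2 CPM in the 6 livers). The labelled tissue had 52668 to 102469 CPM of hepatocyte transcripts over 5 marker genes, and the markers of pancreatic acinar cells other than Cela1 were at or near 0. The sums of the markers of endothelial cells (317 to 389 CPM), stellate cells (257 to 349 CPM) and lymphocytes (10.3 to 17.2 CPM) varied little over the 12 libraries, and none of their genes passed between the genotypes at either time. Those of cholangiocytes ran from 37.9 to 94.7 CPM and those of erythroid cells from 112 to 288 CPM, with 1 cholangiocyte gene higher in Rev-erbα-/- at ZT8. The 1 acinar gene that was tested was also higher there (log2 fold change 0.99). The acinar sum at ZT8 was 25.9 to 28.6 CPM in WT and 43.6 to 59.7 CPM in Rev-erbα-/-.

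WT ZT8 replicates 2 and 3 stood apart from the other 10 libraries in acute-phase transcripts. They also differed from replicate 1 in some genes of growth hormone signalling. In WT ZT8 replicates 1 to 3, Socs2 was at 4.78, 33.8 and 57.9 CPM and Cish at 3.42, 37.3 and 53.3 CPM. Bcl6 was at 132, 52.3 and 16.7 CPM in the same order. In Rev-erbα-/- at ZT8 Bcl6 also varied, at 21.97, 44.6 and 122 CPM. Socs2, Cish and Bcl6 did not pass between the genotypes at either time. Saa1 was at 60.8, 4972 and 6489 CPM in the 3 WT livers of ZT8 and at 21.2 to 96.8 CPM in the other 9. The sum of 15 acute-phase genes was 19868, 43283 and 53733 CPM in these 3 livers and 19090.1 to 24718 CPM elsewhere. The same libraries had lower P450 values: 32 of the 40 genes were lower in both replicates 2 and 3 than in replicate 1, 3 were higher in both, and the median log2 ratio to replicate 1 was −0.38 in replicate 2 and −0.48 in replicate 3. The 5 hepatocyte markers summed to 73831, 58520.5 and 52668 CPM and the 8 Kupffer cell markers to 358, 473 and 555 CPM in WT replicates 1 to 3 of ZT8. The part of these differences in the P450 results was not tested, and each P450 call that rests on WT at ZT8 is given also without both libraries where it was lost there, together with the main calls that held. That fit leaves 1 WT liver at ZT8, which is then assumed to vary like the other groups.

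The most abundant P450 transcript per kilobase of exon was Cyp2e1, the ethanol- and acetone-oxidizing enzyme, in all 4 groups, at 4768, 3927, 2949 and 2951 CPM per kb in WT ZT8, Rev-erbα-/- ZT8, WT ZT20 and Rev-erbα-/- ZT20. The next in order per kilobase differed between the groups. Cyp2f2, an enzyme of naphthalene oxidation, followed in WT at ZT8 (474 CPM per kb) and at ZT20 (700.2 CPM per kb). In Rev-erbα-/- it was Cyp2a5 at ZT8 (725 CPM per kb) and Cyp2c70 at ZT20 (633 CPM per kb). This order depends on the length used, which spans all annotated exons of a gene, 5093 bases in Cyp3a11 and 2025 in Cyp2f2. By CPM alone, Cyp3a11 followed Cyp2e1 in all 4 groups, with means of 1364, 2469, 3187 and 3039 CPM in the same order of groups. Between 15 and 17 of the 40 genes were over 100 CPM per kb in a group and between 8 and 11 were under 1. Of the 40 genes, 34 lay in 6 clusters in which neighbours were less than 1 Mb apart. These were 11 Cyp2c genes on chr19:39007019-40187333, 7 Cyp2d genes on chr15:82370527-82794294, 7 genes of Cyp2b, Cyp2a, Cyp2g and Cyp2f on chr7:25897620-27133660, 4 Cyp3a genes on chr5:145773983-146113287, 3 Cyp2j genes on chr4:96516138-96664154 and both Cyp1a genes on chr9:57676937-57703824 (GENCODE M21, mm10). The heat map of all members sets their patterns side by side.

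**Figure D1:**
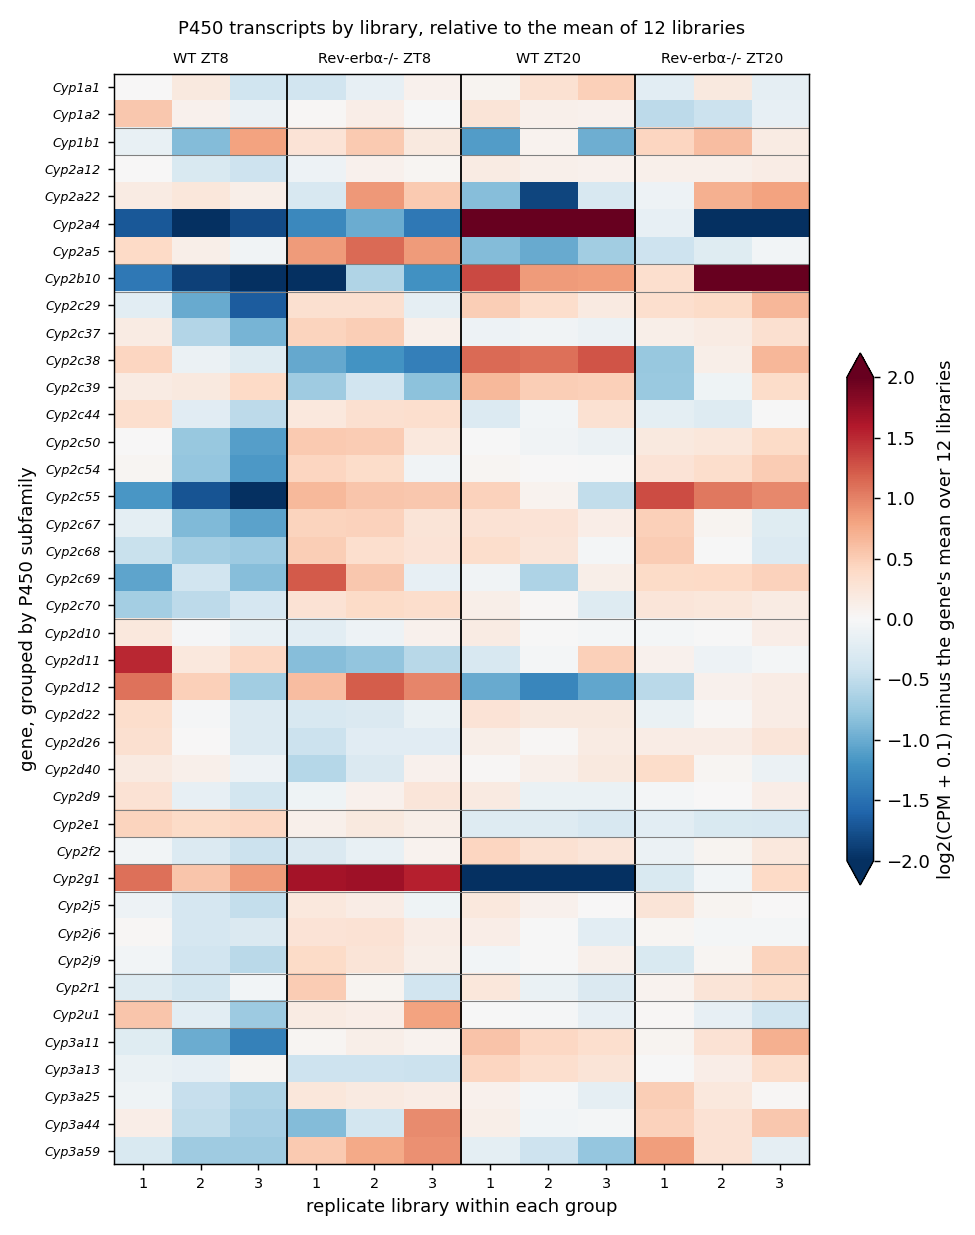
Heat map of the 40 P450 genes (rows, by subfamily) in the 12 libraries (columns, 3 per group). Colour is log2(CPM + 0.1) minus the mean of the gene over the 12 libraries, with the colour scale ending at −2 and 2. Cyp2a4 is high in the 3 WT livers of ZT20, Cyp2g1 is lowest in the same 3, and most Cyp2c genes are low in WT at ZT8, most of all in replicates 2 and 3.

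Close copies limit what a read count can say, since only reads with 1 place in the genome were counted. Of 13 pairs of P450 genes of these families with coding sequences at least 95% identical, Cyp2a4 and Cyp2a5 were the closest, with 23 differences over 1482 bases (98.4%). They were followed by Cyp2c67 with Cyp2c69 (97.7%), Cyp3a25 with Cyp3a59 (97.5%), Cyp2c67 with Cyp2c68 (97.1%) and Cyp2a12 with Cyp2a22 (97.0%). Of all stretches of 75 bases, the read length, in the transcripts of a gene, 42.6% in Cyp2c69, 36.0% in Cyp2c67 and 28.5% in Cyp2c68 also occur in another gene. The share was 22.1% in Cyp2a4 and 22.3% in Cyp2a5. It was over 10% in 14 of the 40 genes and 0 in 9, among them Cyp2c55, Cyp2c70, Cyp2c44 (named Cyp2c23 in the annotation), Cyp3a13 and the 3 Cyp2j genes. The files also list 1.24 to 3.28 alignments to several places for each counted read, with 1.76, 2.89 and 3.28 in WT replicates 1 to 3 of ZT8, and how many of these belong to P450 genes is not known. A read from the remaining sequence tells the copies apart by a few bases, as in bases 595 to 669 of the coding sequences of Cyp2a4 (chr7:26307169-26315088, plus strand) and Cyp2a5 (chr7:26835305-26843548, plus strand) and bases 1022 to 1096 of those of Cyp2c67 (chr19:39608842-39649051, minus strand) and Cyp2c68 (chr19:39688834-39741054, minus strand), shown since the values of these copies are set side by side below. Capitals mark the bases that differ within a pair.
Cyp2a4: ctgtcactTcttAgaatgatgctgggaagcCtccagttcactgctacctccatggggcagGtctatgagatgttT
Cyp2a5: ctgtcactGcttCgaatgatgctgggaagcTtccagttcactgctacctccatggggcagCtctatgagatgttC
Cyp2c67: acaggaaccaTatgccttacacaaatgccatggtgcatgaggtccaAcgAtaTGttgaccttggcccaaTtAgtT
Cyp2c68: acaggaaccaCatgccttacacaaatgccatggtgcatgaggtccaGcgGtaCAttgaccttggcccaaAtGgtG

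At ZT8, 12 of the 40 P450 genes passed the threshold between the genotypes, 10 higher and 2 lower in Rev-erbα-/-, where 8.45% of all tested genes did (638 higher and 586 lower). The median log2 fold change over the 40 genes was 0.43, beside 0.0018 over all genes. The genes that were higher were Cyp2a5, 6 Cyp2c genes (Cyp2c50, Cyp2c55, Cyp2c67, Cyp2c68, Cyp2c69, Cyp2c70), Cyp2j6, Cyp3a25 and Cyp3a59, and those that were lower were Cyp2d11 and Cyp3a13. Without WT ZT8 replicates 2 and 3, 5 genes passed (2 higher and 3 lower), where 2.29% of all genes did, and the median over the 40 was 0.20. Of these, Cyp2c55, Cyp2c70 and Cyp2d11 were among the 12, and Cyp2d22 and Cyp2d26 were not. The count also depended on single libraries: it was 21 without WT ZT8 replicate 1, 6 without WT ZT8 replicate 2, 6 without Rev-erbα-/- ZT8 replicate 1, 5 without Rev-erbα-/- ZT8 replicate 2 and 18 without Rev-erbα-/- ZT20 replicate 1, which enters only the estimate of the spread. The shares over all genes in these fits are not given here, so these counts do not set the P450 genes apart from other genes.

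At ZT20, 4 of the 40 passed, Cyp2a5, Cyp2c55 and Cyp2g1 higher and Cyp2a4 lower in Rev-erbα-/-, where 3.63% of all genes did, and the median log2 fold change was 0.03. It was 2 genes without WT ZT20 replicate 2 or without Rev-erbα-/- ZT20 replicate 2, and 7 without Rev-erbα-/- ZT20 replicate 3. The difference between the genotype effects of both times passed in 4 of the 40, Cyp2a4, Cyp2c68, Cyp2c70 and Cyp2g1, where 5.88% of all genes did. Leaving out any 1 of WT ZT8 replicate 2, Rev-erbα-/- ZT8 replicates 1, 2 or 3, or Rev-erbα-/- ZT20 replicate 2 left 1 gene, Cyp2g1. Without WT ZT8 replicate 3, or WT ZT20 replicate 1 or 2, 2 genes passed, and without WT ZT8 replicate 1 there were 14. From ZT8 to ZT20, 16 of the 40 changed in WT (12 higher and 4 lower at ZT20), where 27.7% of all genes did, and 7 changed in Rev-erbα-/- (4 higher and 3 lower), where 17.5% did. The 4 that were higher in Rev-erbα-/- include Cyp2b10, which met the read minimum only through the ZT20 libraries. The count in Rev-erbα-/- was 11 without WT ZT8 replicate 1. Without WT ZT8 replicates 2 and 3 the count in WT was 10, of which 9 were among the 16, where 11.9% of all genes passed. Counts with single libraries left out are given without the shares over all genes. These comparisons share groups, so that each gene is given below with its own values.

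**Figure D2:**
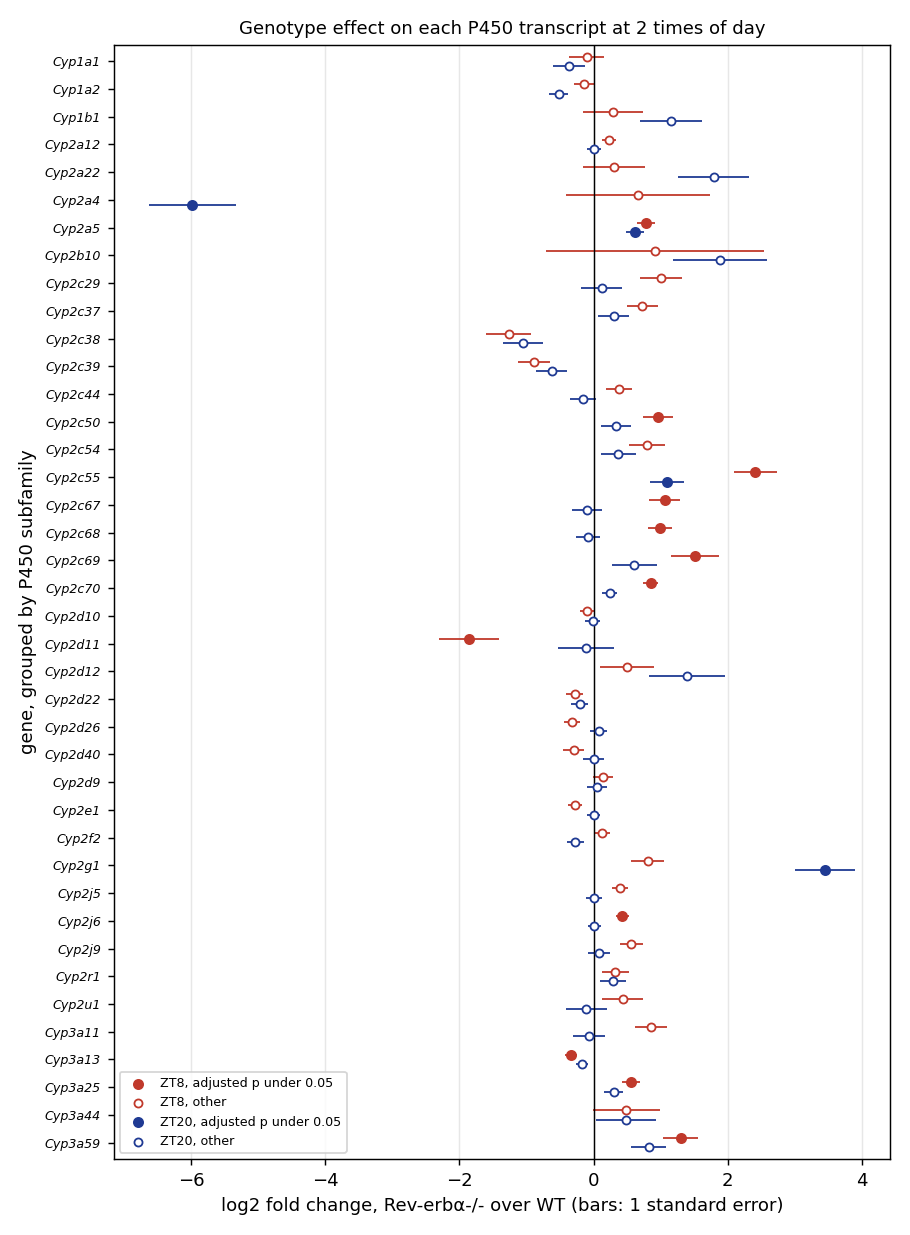
Log2 fold change of Rev-erbα-/- over WT for each of the 40 P450 genes at ZT8 (red) and ZT20 (blue), with bars of 1 approximate standard error and filled points where the adjusted p was under 0.05. At ZT8 most Cyp2c points lie to the right of 0, and at ZT20 Cyp2a4 lies at −5.98 and Cyp2g1 at 3.45.

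In the Cyp2a subfamily, the near-identical pair Cyp2a4 and Cyp2a5 moved in opposite directions from day to night in WT. Cyp2a4, a steroid hydroxylase found mainly in females, was at 0.716, 0.548 and 0.661 CPM in WT and 0.987, 1.22 and 0.881 CPM in Rev-erbα-/- at ZT8. At ZT20 it was at 109, 71.7 and 28.5 CPM in WT and at 2.27, 0.506 and 0.534 CPM in Rev-erbα-/-. Only the 3 WT livers of ZT20 were high, and they differed among themselves from 28.5 to 109 CPM. The log2 fold change of Rev-erbα-/- over WT was −5.98 ± 0.65, adjusted p = 0.00151 at ZT20 and 0.66 ± 1.07, adjusted p = 0.769 at ZT8, and the difference of these effects was 6.64 ± 1.34, adjusted p = 0.0247. In WT the change from ZT8 to ZT20 was 6.74 ± 0.71, adjusted p = 0.000187, and it was 6.59 (adjusted p = 0.0232) without WT ZT8 replicates 2 and 3. In Rev-erbα-/- it was 0.10 ± 0.95, adjusted p = 0.958. The call on the difference of effects was lost without those 2 libraries (adjusted p = 0.157) and without any 1 of WT ZT8 replicates 2 or 3, Rev-erbα-/- ZT8 replicates 1, 2 or 3 or Rev-erbα-/- ZT20 replicate 2 (adjusted p from 0.0523 to 0.0852), while the calls at ZT20 and in WT held in every fit made.

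Cyp2a5, the coumarin hydroxylase, was instead higher in the light phase and higher in Rev-erbα-/- at both times. It was at 1024, 844 and 744 CPM in WT and 1401, 1703 and 1402 CPM in Rev-erbα-/- at ZT8, and at 426, 389 and 481 CPM and 585, 659.7 and 748 CPM at ZT20, with no overlap between any of the groups compared. The log2 fold change of Rev-erbα-/- over WT was 0.79 ± 0.14, adjusted p = 0.0021 at ZT8 and 0.62 ± 0.14, adjusted p = 0.0179 at ZT20, and the effects did not differ detectably (0.17 ± 0.19, adjusted p = 0.689). From ZT8 to ZT20 the log2 change was −1.01 ± 0.14, adjusted p = 5.87e-05 in WT and −1.18 ± 0.14, adjusted p = 3.67e-05 in Rev-erbα-/-. The effect at ZT8 was 0.55 (adjusted p = 0.13) without WT ZT8 replicates 2 and 3, and the call at ZT20 was lost without any 1 of WT ZT20 replicates 1 or 2 or Rev-erbα-/- ZT20 replicates 2 or 3 (adjusted p from 0.0619 to 0.118). At ZT8 Cyp2a4 was thus at about 1 CPM beside a close copy at 744 CPM or more, and whether some of its reads there came from Cyp2a5 was not tested. In WT at ZT20 it was high where Cyp2a5 was lowest. The sum of both was 872, 1503, 502 and 665 CPM (means) in WT ZT8, Rev-erbα-/- ZT8, WT ZT20 and Rev-erbα-/- ZT20. Among the other Cyp2a genes, Cyp2a12 ranged from 454 to 676 CPM over the 12 libraries and passed only in WT with time (0.34 ± 0.11, adjusted p = 0.0274, and 0.09, adjusted p = 0.687 without both libraries), while Cyp2a22 was at or under 0.833 CPM throughout. At ZT20 Cyp2a22 was at 0.186, 0.0442 and 0.313 CPM in WT and 0.378, 0.74 and 0.8 CPM in Rev-erbα-/-, without overlap, but neither this difference (1.79 ± 0.53, adjusted p = 0.0858) nor that with time in WT (−1.38 ± 0.56, adjusted p = 0.0821) passed.

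**Figure D3:**
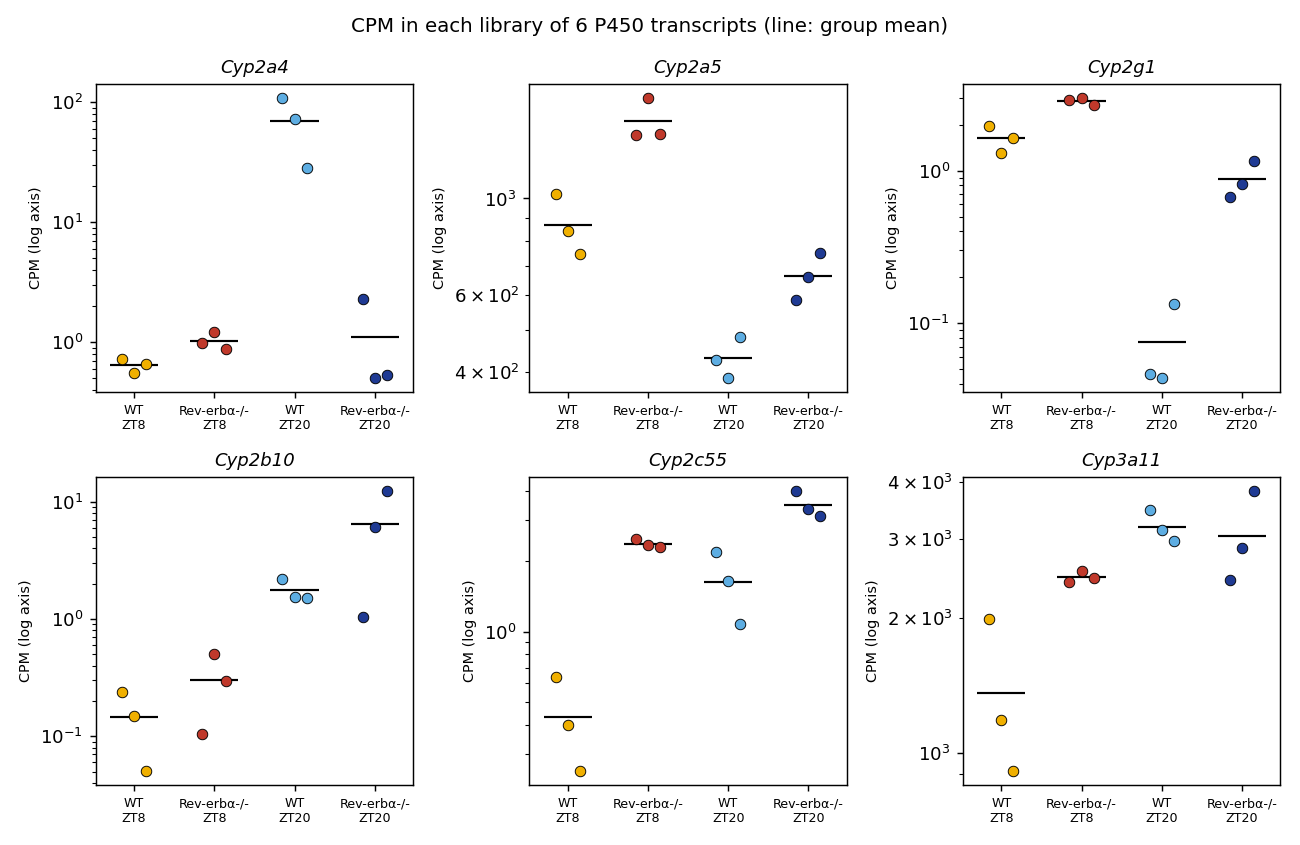
CPM of Cyp2a4, Cyp2a5, Cyp2g1, Cyp2b10, Cyp2c55 and Cyp3a11 in each library on a log axis, with 1 point per liver and a line at the mean of the 3 livers of a group. The WT ZT20 points of Cyp2a4 lie between 28.5 and 109 CPM, far above all others, and those of Cyp2g1 lie at or under 0.134 CPM, below all others.

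The start regions of Cyp2a4 and Cyp2a5 are as alike as their coding sequences. Over 216 bases before the annotated gene starts they differed at 4 places (98.1% identical), which are in capitals here (RefSeq, GRCm38.p6, plus strand, chr7:26306943-26307158 and chr7:26835089-26835304), shown because the transcripts differ so much in level and in time.
Cyp2a4: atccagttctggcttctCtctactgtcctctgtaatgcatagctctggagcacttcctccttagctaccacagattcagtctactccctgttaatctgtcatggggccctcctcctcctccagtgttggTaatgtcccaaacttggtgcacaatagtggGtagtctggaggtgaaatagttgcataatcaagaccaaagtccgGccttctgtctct
Cyp2a5: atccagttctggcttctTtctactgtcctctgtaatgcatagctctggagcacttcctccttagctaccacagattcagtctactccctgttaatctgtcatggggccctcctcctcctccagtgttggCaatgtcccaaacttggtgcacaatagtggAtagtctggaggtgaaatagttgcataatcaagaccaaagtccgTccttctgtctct

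Cyp2g1, known as a P450 of the olfactory mucosa, lies 14.1 kb before Cyp2a5 and was lowest in the livers where Cyp2a4 was highest. It was at 1.95, 1.30 and 1.63 CPM in WT and 2.91, 3.00 and 2.69 CPM in Rev-erbα-/- at ZT8. At ZT20 it was at 0.0465, 0.0442 and 0.134 CPM in WT, which is 1, 1 and 3 reads, and at 0.672, 0.818 and 1.16 CPM in Rev-erbα-/-. The WT livers of ZT20 were thus at or below the level that 3 reads give, and the Rev-erbα-/- livers were all above it. The Rev-erbα-/- to WT ratio at ZT20 was 11.6 (95% interval 4.73 to 37.1, from 63 and 5 reads, exact binomial, counting error only). The fitted log2 fold change was 3.45 ± 0.45, adjusted p = 0.000334. At ZT8 it was 0.81 ± 0.24, adjusted p = 0.0525, and the effects differed by −2.64 ± 0.54, adjusted p = 0.00827. The ratio of ZT8 to ZT20 was 21.9 in WT (95% interval 9.11 to 68.9) and 3.27 in Rev-erbα-/- (2.43 to 4.44), with adjusted p = 2.28e-06 and 0.000425 in the fit. All of these calls held in every fit made, the difference of effects included, which was −2.90 (adjusted p = 0.0134) without WT ZT8 replicates 2 and 3. Only 2.76% of its 75-base stretches occur in another gene.

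Cyp2b10, the classical target of the drug receptor CAR, rose from day to night in Rev-erbα-/-, from a level near that of 3 reads, and its difference in WT did not pass. It met the read minimum only through the ZT20 libraries, with at most 9 reads in any ZT8 library. It was thus made a member by the time at which it was high, which partly sets its rise. It was at 0.239, 0.149 and 0.0508 CPM in WT and 0.104, 0.5 and 0.294 CPM in Rev-erbα-/- at ZT8, and at 2.19, 1.55 and 1.52 CPM and 1.05, 6.04 and 12.4 CPM at ZT20. The ZT20 livers lay above all ZT8 livers in both genotypes, and the Rev-erbα-/- livers of ZT20 differed among themselves more than those of any other group. The ratio of ZT20 to ZT8 was 21.6 in Rev-erbα-/- (95% interval 13.3 to 37.4, from 458 and 17 reads, counting error only), with a log2 change of 4.42 ± 0.94, adjusted p = 0.0119. The 458 reads were 25, 155 and 278 in the 3 livers, and the interval does not cover this spread. In a fit of the Rev-erbα-/- livers alone the rise did not pass (adjusted p = 0.0891). In WT the ratio was 11.3 (5.94 to 24.2, from 116 and 10 reads), with 3.46 ± 1.16, adjusted p = 0.0546. Between the genotypes it did not pass at ZT8 (0.92 ± 1.63, adjusted p = 0.787) or at ZT20 (1.88 ± 0.70, adjusted p = 0.237). In the same cluster, Cyp2f2 was at 1095, 939 and 844 CPM in WT at ZT8 and at 1522, 1393 and 1339 CPM at ZT20, and its rise passed in WT (0.56 ± 0.13, adjusted p = 0.00364) but not without WT ZT8 replicates 2 and 3 (0.37, adjusted p = 0.178). In Rev-erbα-/- it was at 931, 1018 and 1189.6 CPM and 1039, 1173 and 1313 CPM (0.17 ± 0.13, adjusted p = 0.4). In the annotation 13.5% of the exon bases of Cyp2f2 overlap a gene on the opposite strand. Counting in union mode without strand leaves out reads that fall on both genes where both are listed.

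The Cyp2c subfamily, whose members epoxidize arachidonic acid and oxidize many drugs, held 6 of the 10 genes that were higher in Rev-erbα-/- at ZT8. Its 12 members summed to 2845, 2109.7 and 1904 CPM in WT and 4181, 4283 and 3687 CPM in Rev-erbα-/- at ZT8, and to 3921, 3718 and 3409 CPM and 3944, 3869 and 4147 CPM at ZT20. At ZT8 all Rev-erbα-/- livers lay above all WT livers in this sum, and at ZT20 the groups overlapped. Of the 12 genes, 6 passed as higher and none as lower at ZT8, with a median log2 fold change of 0.90, where 8.45% of all genes passed. At ZT20, 1 passed, with a median of 0.18, where 3.63% of all genes did. In WT 6 rose from ZT8 to ZT20 (median 0.60), where 27.7% of all genes changed. In Rev-erbα-/- 1 rose (median −0.14), where 17.5% of all genes changed. When WT ZT8 replicates 2 and 3, the libraries with the acute-phase signal, were left out, 2 of the 12 passed as higher at ZT8 (Cyp2c55 and Cyp2c70, median 0.39) and the same 2 rose in WT (median 0.48).

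Cyp2c70, the enzyme of muricholic acid formation and the member with the most reads, was at 677, 754 and 859 CPM in WT and 1331, 1413 and 1381 CPM in Rev-erbα-/- at ZT8. At ZT20 it was at 1177, 1105 and 906 CPM and 1278, 1274 and 1210.0 CPM. The WT livers of ZT8 were the lowest of all 12, and the Rev-erbα-/- livers of both times lay between 1210.0 and 1413 CPM. The log2 fold change of Rev-erbα-/- over WT was 0.85 ± 0.11, adjusted p = 0.000281 at ZT8 and 0.24 ± 0.11, adjusted p = 0.343 at ZT20, with a difference of effects of 0.61 ± 0.16, adjusted p = 0.0337. Unlike most of the subfamily, Cyp2c70 was not lower in WT ZT8 replicates 2 and 3 than in replicate 1, and without them the effect at ZT8 was 1.02 (adjusted p = 0.00216) and the difference of effects 0.77 (adjusted p = 0.0262). That difference did not pass without any 1 of WT ZT8 replicate 2, Rev-erbα-/- ZT8 replicates 1, 2 or 3, WT ZT20 replicates 1 or 2 or Rev-erbα-/- ZT20 replicates 2 or 3 (adjusted p from 0.0504 to 0.0985). None of its 75-base stretches occur in another gene.

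Cyp2c55, a PXR and CAR target that oxidizes arachidonic acid, was rare and had the largest genotype effect at ZT8 of the 12 that passed. It was at 0.637, 0.399 and 0.254 CPM in WT and 2.49, 2.33 and 2.30 CPM in Rev-erbα-/- at ZT8, and at 2.19, 1.64 and 1.07 CPM and 3.99, 3.35 and 3.11 CPM at ZT20. All Rev-erbα-/- livers were above all WT livers of the same time. The log2 fold changes of Rev-erbα-/- over WT were 2.41 ± 0.32, adjusted p = 0.000254 at ZT8 and 1.09 ± 0.25, adjusted p = 0.0234 at ZT20, and the difference of effects did not pass (1.31 ± 0.41, adjusted p = 0.0772). Without WT ZT8 replicates 2 and 3 the effect at ZT8 was 1.89 (adjusted p = 0.0231). In WT it rose from ZT8 to ZT20 (1.87 ± 0.33, adjusted p = 0.000614), and without these libraries by 1.34 (adjusted p = 0.0486). Its call at ZT20 was lost without any 1 of WT ZT20 replicates 2 or 3 or Rev-erbα-/- ZT20 replicates 1 or 2 (adjusted p from 0.0694 to 0.106).

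Cyp2c67, Cyp2c68 and Cyp2c69, neighbouring copies of one another, were all higher in Rev-erbα-/- at ZT8. Cyp2c68 was at 47.3, 40.4 and 38.9 CPM in WT and 91.3, 81.6 and 77.9 CPM in Rev-erbα-/- at ZT8, and at 82.1, 76.6 and 62.8 CPM and 91.5, 64.0 and 53.4 CPM at ZT20, where the groups overlap. Its effect was 0.99 ± 0.18, adjusted p = 0.00765 at ZT8 and −0.08 ± 0.18, adjusted p = 0.898 at ZT20, and the difference of effects was 1.07 ± 0.25, adjusted p = 0.0319. Cyp2c67, at 293, 182 and 159 CPM in WT and 457, 464 and 401 CPM in Rev-erbα-/- at ZT8, had an effect of 1.06 ± 0.23, adjusted p = 0.0173. Cyp2c69, at 0.557, 0.947 and 0.661 CPM and 3.12, 1.89 and 1.13 CPM, had 1.51 ± 0.36, adjusted p = 0.0163. The 3 copies added together averaged 254 CPM in WT and 526 CPM in Rev-erbα-/- at ZT8 and 468 and 439 CPM at ZT20. The sum was not tested, and the gene that shares the most 75-base stretches with each of the 3 is Cyp2c40, which lies under the read minimum and outside the sum. In WT Cyp2c67 and Cyp2c68 also rose from ZT8 to ZT20, by 0.90 (adjusted p = 0.0138) and 0.81 (adjusted p = 0.00699) on the log2 scale. Without WT ZT8 replicates 2 and 3 none of these calls passed: the effects at ZT8 were 0.59 (adjusted p = 0.259) for Cyp2c67, 0.82 (adjusted p = 0.251) for Cyp2c68 and 1.86 (adjusted p = 0.101) for Cyp2c69, and the difference of effects for Cyp2c68 was 0.90 (adjusted p = 0.266). The rises in WT were then 0.42 (adjusted p = 0.264) for Cyp2c67 and 0.64 (adjusted p = 0.21) for Cyp2c68. Single libraries ended calls as well. The effect at ZT8 did not pass for Cyp2c67 without any 1 of WT ZT8 replicates 2 or 3 or Rev-erbα-/- ZT8 replicates 1 or 2 (adjusted p from 0.0517 to 0.0729), nor for Cyp2c69 without any 1 of WT ZT8 replicate 3 or Rev-erbα-/- ZT8 replicate 1 (adjusted p from 0.0543 to 0.0859). The rise of Cyp2c67 in WT did not pass without WT ZT8 replicate 2 (adjusted p = 0.0524), and the difference of effects of Cyp2c68 without any 1 of WT ZT8 replicates 2 or 3, Rev-erbα-/- ZT8 replicates 1, 2 or 3, WT ZT20 replicates 1 or 2 or Rev-erbα-/- ZT20 replicate 2 (adjusted p from 0.0537 to 0.0873).

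Among the remaining Cyp2c genes, some had higher and some lower values in Rev-erbα-/- at ZT8. Cyp2c50 was at 259, 154 and 120.3 CPM in WT and 372, 367 and 299.7 CPM in Rev-erbα-/- at ZT8 (0.96 ± 0.23, adjusted p = 0.029), with 0.41 (adjusted p = 0.154) without both libraries and no call without any 1 of WT ZT8 replicate 2 or Rev-erbα-/- ZT8 replicates 1 or 2 (adjusted p from 0.0922 to 0.107). Its copies Cyp2c37 and Cyp2c54 had effects of 0.72 and 0.79 that did not pass (0.18 and 0.21 without both libraries), and the 3 together averaged 309 CPM in WT and 571 CPM in Rev-erbα-/-. Cyp2c29, a phenobarbital-inducible enzyme, was at 856, 494 and 312 CPM in WT and 1236, 1231 and 874 CPM in Rev-erbα-/- at ZT8 (1.01 ± 0.31, adjusted p = 0.0792, and 0.38, adjusted p = 0.471 without both libraries) and at 1397, 1258 and 1117 CPM in WT at ZT20. Its rise with time passed in WT (1.18 ± 0.31, adjusted p = 0.0188) and not without both libraries (0.55, adjusted p = 0.11) or without any 1 of WT ZT8 replicate 2 or WT ZT20 replicate 1 (adjusted p from 0.0617 to 0.0656). Cyp2c38 and Cyp2c39 had lower values in Rev-erbα-/-. Cyp2c38 was at 19.5, 13.4 and 12.2 CPM in WT and 7.06, 6.28 and 5.53 CPM in Rev-erbα-/- at ZT8, and at 32.0, 31.2 and 34.8 CPM and 8.56, 15.7 and 22.9 CPM at ZT20, so that the Rev-erbα-/- livers were below the WT livers at both times. The log2 fold changes of −1.26 ± 0.34, adjusted p = 0.0512 at ZT8 and −1.05 ± 0.30, adjusted p = 0.116 at ZT20 did not pass. It rose at night in WT (1.11 ± 0.30, adjusted p = 0.0242) and in Rev-erbα-/- (1.32 ± 0.33, adjusted p = 0.0253), and in WT without both libraries the change was 0.73 (adjusted p = 0.369). Its rise was lost in WT without any 1 of WT ZT8 replicates 2 or 3 or WT ZT20 replicates 1, 2 or 3 (adjusted p from 0.054 to 0.0874) and in Rev-erbα-/- without any 1 of Rev-erbα-/- ZT8 replicates 1, 2 or 3 or Rev-erbα-/- ZT20 replicate 2 (adjusted p from 0.0594 to 0.0839). Cyp2c39, which oxidizes retinoic acid, was at 65.5, 67.4 and 77.3 CPM in WT and 35.8, 44.9 and 33.2 CPM in Rev-erbα-/- at ZT8, likewise without overlap (−0.88 ± 0.24, adjusted p = 0.0525).

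The Cyp2d subfamily, related to the human debrisoquine hydroxylase, had few calls. Its most read member Cyp2d9, a male-predominant testosterone hydroxylase, was at 1391, 1017 and 879 CPM in WT and 1070.1, 1208 and 1347 CPM in Rev-erbα-/- at ZT8 and at 1295, 1042 and 1042 CPM and 1107, 1144 and 1246 CPM at ZT20. None of its comparisons passed (adjusted p from 0.623 to 0.934). The rare members Cyp2d11 and Cyp2d12 gave calls. Cyp2d11 was at 1.75, 0.648 and 0.763 CPM in WT and 0.26, 0.278 and 0.343 CPM in Rev-erbα-/- at ZT8 (−1.85 ± 0.44, adjusted p = 0.0177), and shares 21.9% of its 75-base stretches with other genes, mostly Cyp2d10. Cyp2d12 fell in WT from 1.11, 0.697 and 0.254 CPM at ZT8 to 0.186, 0.133 and 0.179 CPM at ZT20 (−2.06 ± 0.53, adjusted p = 0.00933). Both have few reads, 167 and 148 over the 12 libraries. Without WT ZT8 replicates 2 and 3, their effects were −2.55 (adjusted p = 0.005) and −2.72 (adjusted p = 0.00256). The call of Cyp2d11 was lost without any 1 of WT ZT8 replicate 1 or Rev-erbα-/- ZT8 replicates 1 or 2 (adjusted p from 0.0618 to 0.0722), and that of Cyp2d12 without WT ZT8 replicate 1 (adjusted p = 0.0572). Cyp2d22 and Cyp2d26 passed as lower in Rev-erbα-/- at ZT8 when both WT libraries were left out, with −0.59 (adjusted p = 0.0144) and −0.61 (adjusted p = 0.0117), beside −0.28 (adjusted p = 0.198) and −0.32 (adjusted p = 0.121) with all libraries. Cyp2d26 also rose from ZT8 to ZT20 in Rev-erbα-/- (0.46 ± 0.12, adjusted p = 0.0163). Cyp2d10 and Cyp2d40 passed in no comparison, and the same held for Cyp2c44 and Cyp2j9.

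Cyp2e1 fell from day to night in both genotypes. It was at 10498, 10080.4 and 10289.7 CPM in WT and 8236, 8868 and 8319 CPM in Rev-erbα-/- at ZT8, and at 6469, 6448 and 6177 CPM and 6692, 6234 and 6181 CPM at ZT20. The ZT8 livers lay above all ZT20 livers, and at ZT8 the Rev-erbα-/- livers lay below the WT livers. The change from ZT8 to ZT20 was −0.69 ± 0.10, adjusted p = 0.000116 in WT and −0.41 ± 0.10, adjusted p = 0.0103 in Rev-erbα-/-, on the log2 scale, and −0.73 (adjusted p = 0.0016) in WT without both libraries. The genotype effect did not pass at ZT8 (−0.28 ± 0.10, adjusted p = 0.099) or at ZT20 (0.00 ± 0.10, adjusted p = 0.998). Its level was close to even over the 3 WT livers of ZT8, and its share of all reads on the 40 genes was 43.6%, 49.5% and 53.2% in the 3 WT livers of ZT8, 35.9% to 36.2% in Rev-erbα-/- at ZT8, and 27.6% to 32.0% in the 6 livers of ZT20.

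Among the fatty acid epoxygenases of the Cyp2j subfamily, Cyp2j5 was at 743, 632 and 574 CPM in WT and 924, 879.9 and 749 CPM in Rev-erbα-/- at ZT8 (0.39 ± 0.12, adjusted p = 0.0529) and at 922, 849 and 800.2 CPM in WT at ZT20, where its rise in WT passed (0.40 ± 0.12, adjusted p = 0.0195) but not without both libraries (0.20, adjusted p = 0.452). Cyp2j6 passed at ZT8 (0.43 ± 0.10, adjusted p = 0.0143) and not without both libraries (0.21, adjusted p = 0.496). Cyp2r1, a vitamin D hydroxylase, ranged from 12.4 to 23.1 CPM over the 12 libraries, and Cyp2u1, a fatty acid hydroxylase, from 15 to 43.6 CPM. Neither passed in any comparison, and 10.5% of the exon bases of Cyp2u1 overlap another gene.

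Cyp3a11, the main drug-oxidizing Cyp3a enzyme of mouse liver and a PXR target, was at 1992, 1185 and 915 CPM in WT and 2407, 2544 and 2457 CPM in Rev-erbα-/- at ZT8. At ZT20 it was at 3465, 3129 and 2967 CPM and 2433, 2853 and 3830.4 CPM. The 3 WT livers of ZT8 were the lowest of the 12, and the groups of ZT20 overlap. The rise from ZT8 to ZT20 passed in WT (1.22 ± 0.24, adjusted p = 0.003) and was 0.67 (adjusted p = 0.0471) without both libraries, while in Rev-erbα-/- it was 0.30 ± 0.24, adjusted p = 0.447. The genotype effect of 0.86 ± 0.24, adjusted p = 0.0509 at ZT8 did not pass and was 0.31 (adjusted p = 0.574) without both libraries. Nor did the effect pass at ZT20 (−0.07 ± 0.24, adjusted p = 0.941) or the difference of both (0.93 ± 0.34, adjusted p = 0.153). Cyp3a59 was at 49.6, 37.3 and 37.5 CPM in WT and 88.0, 104 and 115 CPM in Rev-erbα-/- at ZT8 (1.30 ± 0.26, adjusted p = 0.0168), and its close copy Cyp3a25 passed as well (0.56 ± 0.14, adjusted p = 0.0225). Together the copies averaged 657 CPM in WT and 1006 CPM in Rev-erbα-/-, and without both WT libraries neither passed (1.04, adjusted p = 0.343, and 0.27, adjusted p = 0.534). Cyp3a59 did not pass either without any 1 of WT ZT8 replicates 2 or 3 or Rev-erbα-/- ZT8 replicate 2 (adjusted p from 0.0568 to 0.0742). Cyp3a13, which lies on chromosome 5 away from the other Cyp3a genes, was lower in Rev-erbα-/- at ZT8, at 138, 138 and 137 CPM beside 168, 164 and 189 CPM in WT (−0.34 ± 0.09, adjusted p = 0.0332), and it rose at night in WT (0.42 ± 0.09, adjusted p = 0.00272) and in Rev-erbα-/- (0.59 ± 0.09, adjusted p = 0.000493). Without both libraries the effect at ZT8 was −0.29 (adjusted p = 0.311). Cyp3a44 was at or under 0.979 CPM.

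The 3 AHR targets of family 1 did not pass in any of the 5 comparisons. Cyp1a2, the caffeine demethylase, was at 1167, 852 and 739.7 CPM in WT and 821, 877 and 801 CPM in Rev-erbα-/- at ZT8, where the groups overlap, and at 966, 865 and 853 CPM and 562, 595 and 717 CPM at ZT20, where they do not (−0.52 ± 0.14, adjusted p = 0.0628). Cyp1a1 stayed between 1.02 and 1.97 CPM and Cyp1b1 between 0.233 and 1.17 CPM in the 12 libraries.

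**Figure D4:**
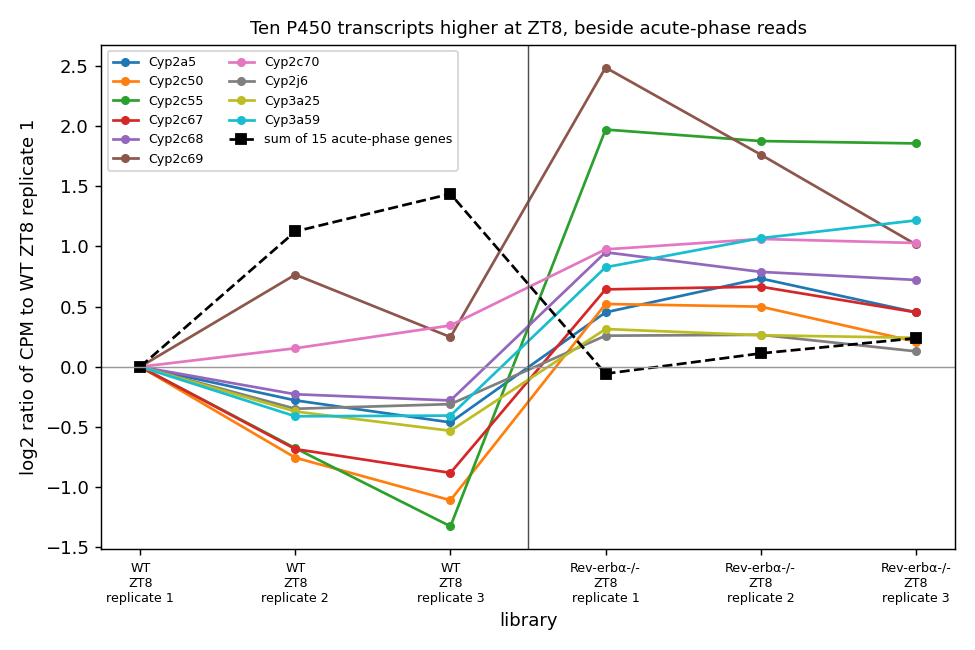
Log2 ratio of CPM to WT ZT8 replicate 1 in the 6 libraries of ZT8, for the 10 P450 genes that were higher in Rev-erbα-/- at ZT8 and for the sum of 15 acute-phase genes (dashed). In WT replicates 2 and 3 the acute-phase sum lies at 1.12 and 1.44 and 8 of the 10 genes lie below 0, while in the Rev-erbα-/- livers all 10 lie above 0. The 10 were chosen for being higher in Rev-erbα-/- than in WT at ZT8.

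By receptor, the 6 P450 genes listed as CAR or PXR targets (Cyp2b10, Cyp2c29, Cyp2c37, Cyp2c55, Cyp3a11, Cyp3a13) summed to 3066, 1873 and 1439.5 CPM in WT and 3844, 3978 and 3519 CPM in Rev-erbα-/- at ZT8, and to 5155, 4664 and 4349 CPM and 3912, 4402 and 5701 CPM at ZT20. In WT 4 of the 6 rose from ZT8 to ZT20 (median log2 change 1.2; without WT ZT8 replicates 2 and 3, 3 of the 6 with a median of 0.61) and in Rev-erbα-/- 2 did (median 0.43), while at ZT8 1 was higher (Cyp2c55) and 1 lower (Cyp3a13) in Rev-erbα-/-, of which Cyp3a13 did not pass without both libraries. The 2 that rose in Rev-erbα-/- were Cyp2b10 and Cyp3a13, and Cyp2b10 met the read minimum only through the ZT20 libraries, which partly sets its rise. Over all genes and libraries, 27.7% changed with time in WT and 17.5% in Rev-erbα-/-. Between genotypes 8.45% passed at ZT8 and 3.63% at ZT20. Of 8 genes listed as female-predominant, 4 were high enough to be tested. The 8 summed to 67.7, 69.5 and 79.0 CPM in WT and 40.7, 48.6 and 36.7 CPM in Rev-erbα-/- at ZT8, most of it Cyp2c39, and to 204, 156 and 112 CPM and 40.7, 58.8 and 78.9 CPM at ZT20, most of it Cyp2a4 and Cyp2c39. The sum, which was not tested, was lower in Rev-erbα-/- without overlap at both times. At ZT20 1 of the 4, Cyp2a4, was lower in Rev-erbα-/-. At ZT8 the rare Cyp2c69 was higher and the other 3 did not pass, and without both WT libraries none of the 4 passed. Both genes listed as male-predominant passed in no comparison, and neither did the 3 tested AHR targets outside the P450s, except 1 that was higher at ZT20 than at ZT8 in Rev-erbα-/-.

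The receptors and cofactors of these enzymes were counted beside them. Of 12 xenobiotic receptors and partners, 11 were tested. Between genotypes 8.45% of all genes passed at ZT8 and 3.63% at ZT20. At ZT8 1 passed, the hepatocyte regulator Hnf4a, higher in Rev-erbα-/- (0.35 ± 0.10, adjusted p = 0.0366). At ZT20 1 passed, Ahr, at 43.2, 42.2 and 43.6 CPM in WT and 57.6, 58.6 and 50.1 CPM in Rev-erbα-/- (0.37 ± 0.09, adjusted p = 0.0382). Neither Nr1i2 (PXR) nor Nr1i3 (CAR) passed between genotypes. Nr1i3 was at 109 to 185 CPM over the 12 libraries and Nr1i2 at 71.5 to 105 CPM, with a rise of Nr1i2 in WT from ZT8 to ZT20 (0.30 ± 0.09, adjusted p = 0.0257). In the list of PAR bZIP factors, Dbp fell from 129, 132 and 119.7 CPM at ZT8 to 2.19, 2.52 and 2.46 CPM at ZT20 in WT and from 99.2, 107 and 127 to 2.52, 1.99 and 1.11 CPM in Rev-erbα-/-, and Tef and Hlf fell at night in both genotypes too. None of these 3 passed between genotypes. Their repressor counterpart Nfil3, which REV-ERBα is known to repress, was at 12.9, 12.0 and 11.4 CPM in WT and 59.9, 60.1 and 58.5 CPM in Rev-erbα-/- at ZT8 (2.29 ± 0.07, adjusted p = 3.75e-11) and at 48.6 to 60.8 CPM in all livers of ZT20.

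For the electron and heme supply of P450s, 14 genes were tested. None passed between genotypes at ZT8, 1 was lower in Rev-erbα-/- at ZT20, and from ZT8 to ZT20 5 rose and 3 fell in WT, and 2 rose and 1 fell in Rev-erbα-/-. Over all genes, 8.45% passed between genotypes at ZT8 and 3.63% at ZT20. With time 27.7% of all genes passed in WT and 17.5% in Rev-erbα-/-. The same shares stand beside the counts of the growth hormone and zonation lists. The gene that was lower at ZT20 was Alad, of heme synthesis, at 279.9, 243 and 256 CPM in WT and 116, 117 and 129 CPM in Rev-erbα-/- (−1.11 ± 0.20, adjusted p = 0.0131). Por was at 339, 527 and 593 CPM in WT at ZT8 and 195, 186 and 209 CPM at ZT20 (−1.31 ± 0.19, adjusted p = 0.000284), and fell in Rev-erbα-/- too (−1.02 ± 0.18, adjusted p = 0.00296). Alas1, the rate-limiting enzyme of heme synthesis, was at 229.8, 709 and 924 CPM in WT at ZT8, lowest in replicate 1, and at 128, 106 and 98.3 CPM at ZT20 (−2.48 ± 0.59, adjusted p = 0.0147). In Rev-erbα-/- Alas1 was at 761, 702 and 259 CPM at ZT8 and at 143, 205 and 292 CPM at ZT20. For Hnf4a and the genes of the lists given here, calls that rest on WT at ZT8 are shown with all libraries only. In growth hormone signalling, 2 of 10 genes were higher in Rev-erbα-/- at ZT8, Stat5a (0.73 ± 0.12, adjusted p = 0.00125) and Igf1 (0.44 ± 0.10, adjusted p = 0.0114), and 2 were lower at ZT20, Stat5a (−0.49 ± 0.11, adjusted p = 0.0261) and Stat5b (−0.32 ± 0.07, adjusted p = 0.0249). In the zonation lists, the 11 pericentral genes, of the zone where Cyp2e1 and Cyp1a2 are known to lie, summed to 3541 to 4964 CPM at ZT8 and 3441 to 3729 CPM at ZT20, where 5 fell in WT and 4 in Rev-erbα-/- with time and none passed between the genotypes. The 11 periportal genes summed to 9261 to 10928 CPM and 10529.6 to 13408 CPM. Of these, 1 was higher and 1 lower in Rev-erbα-/- at ZT8 and 1 was lower at ZT20, and with time 6 rose and 2 fell in WT and 1 rose in Rev-erbα-/-. In bulk liver RNA, fewer cells of a zone or type and less RNA in each cell cannot be told apart. The part of these regulators in the P450 values was not tested.

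Promoters, from 250 bases before to 50 after the start, were found by symbol in the RefSeq table (GRCm38.p6) for 34 of the 40 genes. They were searched on both strands for 4 short motifs, none of which contains another. A loose form of the D-box core (TTATNTAA, with any base at N) was in 2 of 34 (5.88%, beside 4.07% of all 27025 genes), Cyp2c70 and Cyp3a44. The letters matched were TTATTTAA in Cyp2c70 and TTATATAA in Cyp3a44, and whether DBP, TEF, HLF or NFIL3 bind either was not tested. The REV-ERB and ROR element was in 1 (2.94%, beside 0.714%), Cyp3a11. The E-box (CACGTG) was in 1 (2.94%, beside 8.09%), Cyp2j6, and the AHR core (TNGCGTG) in 1 (2.94%, beside 5.84%), Cyp2c68. None was in the Cyp2a4, Cyp2a5 or Cyp2c55 window. The shares rest on 1 or 2 genes each, and a match of letters is no measure of binding. The matches before Cyp2c70, whose effects differed between the times, and before Cyp3a11 are shown in capitals, in the bases ahead of the annotated gene. They are a match to TTATNTAA for Cyp2c70 (chr19:40187334-40187536, minus strand) and to the REV-ERB and ROR element for Cyp3a11 (chr5:145879965-145880104, minus strand).
Cyp2c70: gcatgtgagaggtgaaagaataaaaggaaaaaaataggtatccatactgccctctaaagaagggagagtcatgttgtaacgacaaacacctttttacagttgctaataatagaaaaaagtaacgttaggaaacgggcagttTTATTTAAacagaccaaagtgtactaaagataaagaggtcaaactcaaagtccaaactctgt
Cyp3a11: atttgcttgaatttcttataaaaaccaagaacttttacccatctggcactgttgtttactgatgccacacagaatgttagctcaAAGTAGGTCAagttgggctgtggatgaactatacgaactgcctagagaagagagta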

How the data were processed

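Poly(A) RNA of 12 mouse livers, 3 in each of 4 groups of genotype and time, was sequenced with reads of 75 bases. The authors aligned the reads with TopHat to mm10, kept those with 1 place in the genome and deposited read counts per gene symbol from HTSeq-count (union mode, minimum alignment quality 10, strand ignored); per the labels they used SAMtools and DESeq2 1.6.3 as well. Counts of overlapping genes and of close copies are thereby lowered or cannot be assigned. The 5 summary lines of each file were left out.

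Counts were analysed in R 4.3.3 with edgeR 4.0.16 (filterByExpr, TMM scaling, a robust quasi-likelihood fit of 4 group means over all 12 libraries) for both genotype effects, their difference and the change with time in each genotype. P-values were adjusted by Benjamini and Hochberg's method over 14488 genes, with 0.05 as the threshold. They cover the spread between the 3 mice of a group, and an exact permutation test of 3 against 3 mice cannot go below 0.1. Libraries of a group differed by more than sampling noise. Same-numbered libraries of different groups did not deviate together (mean r −0.0183 over 18 pairs, and 0.00891 over 36 pairs of other numbers), so that the numbers pair nothing. The fit was tested on simulated data. DESeq2 1.42.0, its size factors, no filter, the replicate block, the groups compared alone and each library left out in turn were alternatives. Leaving out WT ZT8 replicates 2 and 3 together was added after the data were seen.

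The members, gene lists and rules were chosen with earlier results of these data known. Genes named were members that passed in a comparison by at least 1.5-fold, the member with the most reads in each subfamily, Nr1d1, Arntl and Dbp, and regulators and electron or heme supply genes that passed, of which only some are given in values. Cyp1a1, Cyp2a12, Cyp2a22, Cyp2c37, Cyp2c39, Cyp2c40, Cyp2c44, Cyp2c54, Cyp2d10, Cyp2d22, Cyp2d26, Cyp2d40, Cyp2j6, Cyp2j9, Cyp3a25 and Cyp3a44 were named in addition, after their values were seen. The same holds for Bcl6, Cish and Socs2. Gene positions, exon lengths, coding identity and shared stretches of 75 bases were computed with Python 3.11.15 and Biopython 1.88 from GENCODE M21. Protein sequences were not used here, and coding bases stand in for them. Promoters came from RefSeq (GRCm38.p6). Intervals of read ratios are exact binomial at 95% and cover counting error only.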

Additional observations from a re-analysis of the deposited data

Results flagged for a closer look

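The genotype effect differed between ZT8 and ZT20 in 4 P450 genes, by the test of the difference itself (edgeR). The log2 effect at ZT8 minus that at ZT20 was 6.64 for Cyp2a4 (adjusted p = 0.0247), 1.07 for Cyp2c68 (adjusted p = 0.0319), 0.61 for Cyp2c70 (adjusted p = 0.0337) and −2.64 for Cyp2g1 (adjusted p = 0.00827). In Cyp2a4 all 3 Rev-erbα-/- livers were below all 3 WT livers at ZT20 and above them at ZT8, and in Cyp2c68 and Cyp2c70 all 3 were above them at ZT8. In Cyp2g1 all 3 were above the WT livers at both times. The adjusted p of Cyp2g1 was at most 0.0418 over 17 alternatives. The others passed in 10 of 17 for Cyp2a4, 7 of 17 for Cyp2c68 and 8 of 17 for Cyp2c70, and kept their direction in all 17.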

How the results depend on the processing

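Of the 43 calls of single P450 genes, 33 were of at least 1.5-fold. Of these 33, 14 stayed past the threshold in every alternative run, 19 missed it in at least 1, and none changed direction. Of the 10 smaller calls, 8 rest on WT at ZT8, and 6 of these (Cyp2j6, Cyp3a13 and Cyp3a25 between genotypes, and Cyp2a12, Cyp2f2 and Cyp2j5 with time) were lost without WT ZT8 replicates 2 and 3. With all libraries, 12 genes passed between genotypes at ZT8, 4 at ZT20, 4 in the difference of effects, and 16 in WT and 7 in Rev-erbα-/- with time. DESeq2 gave 20 at ZT8 and 8 at ZT20, and a fit of only the 2 groups compared gave 8 at ZT20. Leaving out 1 library at a time gave 5 to 21 genes at ZT8, 2 to 7 at ZT20, 1 to 14 in the difference of effects, 11 to 21 in WT and 5 to 11 in Rev-erbα-/- with time. The cause was not tested. The shares over all genes in these alternatives are not given here, so the changes in count are not shown to be particular to the P450 genes. Leaving out WT ZT8 replicates 2 and 3 gave 5 genes at ZT8, 4 in the difference of effects, of which 2 were among the 4, and 10 in WT with time, from fewer samples. DESeq2's size factors in edgeR changed no count, and without the filter on low counts the counts were 13, 5, 3, 15 and 7. With the replicate block they were 13, 4, 6, 16 and 6, and since the numbers pair nothing this is given as a check only. The difference of Nr1d1 at ZT8 was −0.85 without both WT libraries (adjusted p = 0.0123), −0.65 without WT ZT8 replicate 3 (adjusted p = 0.0316) and −0.26 without WT ZT8 replicate 1, the lowest and highest with 1 library left out being the last 2. With 3 mice in a group and reads that have 1 place in the genome, rare members and close copies are the least certain.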
